A study of Mus musculus with 8 samples.

Results

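Il7r-positive lymphoid progenitors were taken from mouse bone marrow sorted as lineage-negative, c-Kit-positive cells and profiled by droplet single-cell RNA sequencing, 1 library per mouse. The cells were chosen by their own transcript counts: at least 1 unique molecular identifier (UMI, a tag that marks 1 captured transcript) of Il7r, none of Cebpe, F13a1 or Klf1, and fewer than 2 of Siglech. The 4 genes other than Il7r mark granulocyte, monocyte, erythroid and plasmacytoid dendritic progenitors. Before that, cells needed 1000 or more UMIs and under 10% of UMIs in mitochondrial (mt-) genes. These limits kept 46159 cells, of which 334 were members.

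The 8 wild-type mice formed 4 age groups, each of 1 male with 1 female. Young mice were 14 weeks old, middle-aged mice 50 weeks and very old mice 95 weeks, while the old male was 78 and the old female 79 weeks old. No treatment, transplant or transgene is given for these mice. The libraries of the very old mice belong to the series SL20 and the other 6 to the series SL19, so the effect of being very old cannot be told apart from that of the library series. The sort on lineage markers and c-Kit sets which Il7r-expressing cells could enter a library, and each share given here is a share within that gate.

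Il7r encodes the alpha chain of the receptor for interleukin-7, the cytokine that early B and T cells of the mouse need to survive and divide. The chain pairs with the common gamma chain (Il2rg) and signals through Jak1, Jak3 and Stat5. In the marrow the receptor appears on common lymphoid progenitors, which still hold open B, T, natural killer and innate lymphoid fates. Ebf1 and Pax5 then direct cells to the B lineage, while Tcf7, Gata3, Zbtb16 and Id2 mark precursors of innate lymphoid cells, and Tcf7, Gata3 and Bcl11b early T cells. Surface c-Kit is known to be low on common lymphoid progenitors.

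The members numbered 57 and 54 in the young male and female, 67 and 29 in the middle-aged, 32 and 44 in the old, and 30 and 21 in the very old mice. Their median UMI count was 15067 over all mice and lowest, at 10417, in the very old female and highest, at 17523, in the middle-aged one. Total UMIs per library ran from 83062003 to 150135029. Each pair of libraries shared between 3 and 14 cell barcodes, and no barcode of a member was a member in a second library. Scrublet, a doublet caller, or its highest scores where it marked under 0.5% of a library, marked 7 members (2.10%) against 2.37% of all filtered cells. They stayed in.

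Il7r itself chose these cells and is given as a description. Its gene lies on chromosome 15 (GRCm38, 9505788 to 9530176, minus strand). Of the 334 members, 149 had 1 Il7r UMI, 61 had 2 and 42 had 3, with a maximum of 16. The mean Il7r count per member lay between 1.81 UMIs in the very old female and 3.13 in the very old male. Members with the lowest possible count were thus the most common kind, and a drop of 1 captured molecule would have left them out.

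Free RNA in droplets can place stray UMIs in any cell, so Il7r was counted in cells that should lack it. It was found in 9 of 11176 cells with 2 or more Klf1 UMIs (0.0805%, exact 95% interval 0.0368 to 0.153, median 29208 UMIs) and in 5 of 5586 with 2 or more Cebpe UMIs (0.0895%, 0.0291 to 0.209, median 19957.5 UMIs). Among the 18797 cells that met the other limits the share was 1.78% (1.59 to 1.98), at a lower median depth of 10280 UMIs. The intervals cover counting error only. With each cell thinned to 3000 UMIs the shares were 0%, 0.0180% and 0.818%.

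Another 107 cells carried Il7r and failed the other limits: 47 held Klf1, 43 F13a1, 19 Cebpe and 4 held 2 or more Siglech UMIs, some more than 1 of these. A single UMI of Cebpe, F13a1 or Klf1 excluded 72 of them. Those 72 cells, just outside the rule, had Dntt in 87.5% and Flt3 in 81.9%. Members with 1 Il7r UMI, just inside it, had Dntt in 82.6% and Flt3 in 77.2%, and members with 2 or more had 85.4% and 78.4%. Cells with no Il7r UMI that met the same other limits had Dntt in 14.3% and Flt3 in 29.5%.

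Several of the early lymphoid genes, which the rule did not use, were present in most members, while others were in few. Dntt, the polymerase that adds untemplated bases during antigen receptor joining, was found in 281 members (84.1%). Lsp1 was in 285, the chromatin organiser Satb1 in 281, the transcription factor Mef2c in 287 and the cytokine receptor Flt3 in 260. The Notch1 receptor was in 203. Rag2 and Rag1, whose products cut antigen receptor genes, were in 92 and 28 members. Ly6a, Ccr7 and Ly6d were in 95, 43 and 32. Of 18 genes on the early lymphoid list, 16 were higher in members than in all other filtered cells of the same mouse in each of the 8 mice and none was lower in each. Over the 8494 genes found in 10% or more of members, 16.5% were higher and 13.2% lower in each mouse. At 2 or more genes of the list per cell, the share was 98.8% of members but also 73.8% of all other filtered cells. At full depth, presence of list genes alone therefore set members apart only in part. With cells thinned to 3000 UMIs the shares lay farther apart, at 93.6% of members and 32.3% of all other filtered cells. Among cells with no Il7r UMI that met the same other limits, the thinned share was 54.1%. At full depth Dntt differed more than the list, in 84.1% of members against 8.65% of all other filtered cells. By Dntt the label of lymphoid progenitors matched most members. Kit itself gave a UMI in 167 of them.

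The comparison with other cells is a description, since members were separated from those cells by their transcripts. Levels are in CPM (a gene's share of the UMIs summed over the cells of a mouse), and ratios are log2 with 1 added to both levels. Among genes found in at least 10% of members, the 15 with the highest ratio were Trbc1, Dntt, Arpp21, Cox6a2, Trbc2, Tcf7, Rora, Cmah, Rag2, Ccr7, Tmem108, Tnni1, Il18r1, AA467197 and Lck. Dntt stood at 1630 ± 435 (SD, n = 8 mice) in members and 29.8 ± 9.73 in all other cells. Arpp21 stood at 89.7 ± 28.9 against 1.37 ± 0.462, and its log2 ratio lay between 4.33 and 6.004 in the 8 mice. Cox6a2 stood at 118 ± 15.3 against 2.56 ± 0.834.

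These 15 genes were of different kinds. Some were broad: Dntt, Arpp21, Cox6a2 and Cmah were found in 45.2% to 84.1% of members. Others sat in few cells at high level. Trbc1, a constant segment of the T cell receptor beta chain, reached 130 ± 113 CPM from 39 members (11.7%), and Tcf7 reached 47.6 ± 33.1 from 38. Trbc1 and Trbc2 are near-identical copies, so the division of reads between them is uncertain.

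Members were also set beside the 2648 cells that met the same limits with Dntt but no Il7r UMI. Flt3 was found in 77.8% of both sets. Rag2 was in 27.5% of members against 4.31% of these cells, Notch1 in 60.8% against 40.0%, Ly6d in 9.58% against 0.642% and Rag1 in 8.38% against 0.642%. Other genes of the list were in a smaller share of members: Ly6a in 28.4% against 37.8%, Mef2c in 85.9% against 90.4% and Cd27 in 83.8% against 85.8%. Of the 18 genes, 7 had a higher level in members in each of the 8 mice and none a lower one, where 4.03% of all genes were higher and 3.38% lower. The median UMI count was 15067 in members and 12831.5 in these cells.

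**Figure D1:**
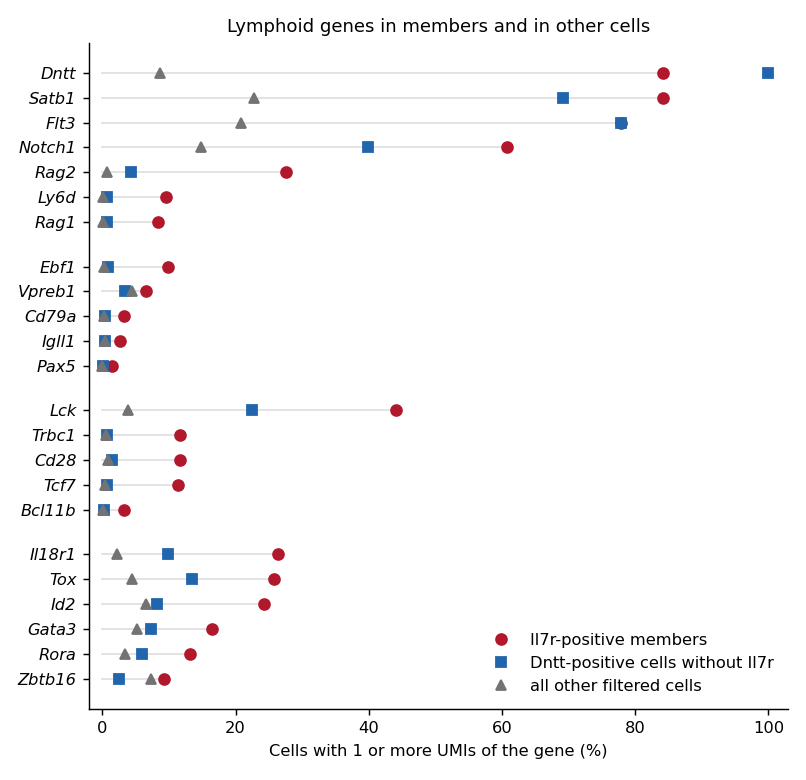
Share of cells with 1 or more UMIs (x axis, percent) of early lymphoid, B, T and innate lymphoid genes (y axis, top to bottom), in the 334 members (circles), in Dntt-positive cells without Il7r (squares) and in all other filtered cells (triangles). Dntt, Satb1, Flt3 and Notch1 were in most members, while B, T and innate lymphoid genes plotted here were in 1.497% (Pax5) to 44.0% (Lck) of them. Flt3 was at 77.8% in both sets, so its circle and square overlie.

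A member was said to show a lineage when 2 or more different genes of that list had a UMI. By this measure 35 members (10.5%, exact 95% interval 7.41 to 14.3) showed B genes, 80 (24.0%, 19.5 to 28.9) showed T genes and 115 (34.4%, 29.3 to 39.8) showed innate lymphoid genes. In 172 members (51.5%) none of the 3 lists was shown. The same count in cells with 2 or more Klf1 UMIs gave 0.993% for B, 0.0984% for T and 7.68% for innate lymphoid genes, at a median of 29208 UMIs. In cells with 2 or more Cebpe UMIs it gave 3.69%, 0.269% and 5.71%. In Dntt-positive cells without Il7r it gave 2.34%, 2.42% and 12.8%. With cells thinned to 3000 UMIs, members kept 2.75%, 11.6% and 14.98% and Dntt-positive cells without Il7r 0.310%, 0.503% and 1.70%. The shares of members were above those of the Klf1, Cebpe and Dntt-positive cells at both depths. The 72 Il7r cells left out by a single UMI of Cebpe, F13a1 or Klf1 gave 15.3%, 19.4% and 33.3% at full depth.

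The B list was led by Cd79b, the beta part of the B cell receptor complex, in 158 members, but this gene was also in 30.9% of all other cells. Ebf1, the factor that starts the B programme, was in 33 members (9.88%) against 0.177% of all other cells. The surrogate light chain genes Vpreb1, Vpreb2 and Igll1 were in 22, 7 and 9 members. Vpreb1 was also in 4.39% of all other cells. Vpreb1 and Vpreb2 are close copies, and their counts may be split between them. Cd79a was in 11 members, and Pax5, which marks committed B cells, in 5. Ms4a1, which encodes CD20 of mature B cells, was in none of 334. A count of 0 UMIs does not exclude low expression, and the lineage-negative sort may have removed mature B cells beforehand.

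The 35 members with B genes all held Dntt. Rag1 was in 42.9% of them against 8.38% of all members, Rag2 in 54.3% against 27.5% and Ly6d, a surface marker of B-biased lymphoid progenitors, in 34.3% against 9.58%. Tcf7 and Gata3 were each in 2.86% of them. All 9 members with Igll1 also held Ebf1 and Vpreb1, and all 5 with Pax5 held Ebf1.

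The T list was led by Lck, a kinase of T cell receptor signalling, in 147 members, and it was also in 22.4% of Dntt-positive cells without Il7r. Trbc1, Cd28, Tcf7 and Trbc2 followed in 39, 39, 38 and 37 members, and Bcl11b was in 11. The genes that define T cells were near absent: Cd3e, Cd3d, Trac and Cd8b1 were in none of 334 members, Cd3g in 2 and Cd8a in 1. The sort took lineage-negative cells, and the lineage panel the paper gives for its stem cell sort includes CD3e, CD8 and B220. If that panel was used here, cells bearing these proteins were removed beforehand, so this absence may be set in part by the gate. The list counted T-lineage genes that early lymphoid and innate lymphoid precursors also use.

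Of the innate lymphoid list, Il18r1 was in 88 members, Tox in 86, Id2 in 81, Gata3 in 55, Rora in 44, Icos in 33, Zbtb16 in 31, Pdcd1 in 28 and Klrd1 in 28. Il2rb, a receptor chain of natural killer cells, was in 18. Genes of mature natural killer cells were rare, with Ncr1 in 1 member, Eomes in 2 and Tbx21 in none. Il18r1, Tox and Id2 were also in 9.82%, 13.5% and 8.27% of Dntt-positive cells without Il7r.

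A compact group of genes was found together. Of the 38 members with Tcf7, 31 also held Gata3 and 31 held Trbc1, and of the 31 members with Zbtb16, 28 held Tcf7, 28 held Gata3 and 26 held Id2. Gata3 was in 24 of the 296 members without Tcf7. Ebf1 and Tcf7 met in 1 member. Dntt was in 12 of the 38 Tcf7 members (31.6%), against 269 of the 296 without Tcf7 (90.9%). These counts come from single cells of 8 mice pooled, and cells of 1 mouse are not independent. The rule chose these cells, so the counts describe them and were not tested.

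**Figure D2:**
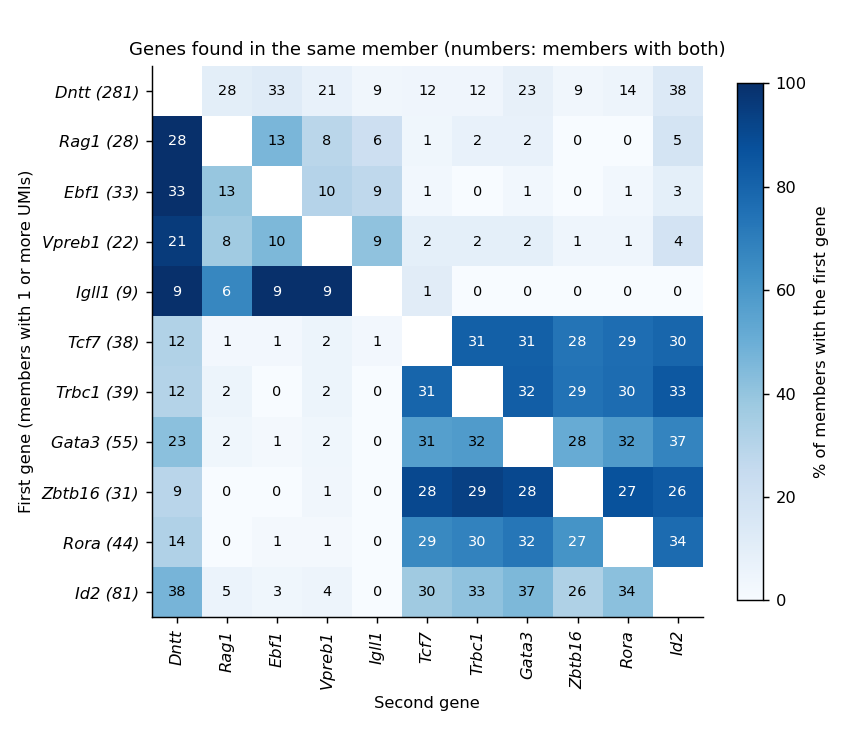
Members with both of 2 genes (numbers), shaded by their percentage of the members with the first gene (rows, with the number of members in brackets; columns give the second gene). Tcf7, Trbc1, Gata3, Zbtb16, Rora and Id2 formed a block of shared members, and Dntt, Rag1, Ebf1, Vpreb1 and Igll1 were found mainly outside it.

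The lists, which hold no gene in common, were often shown together. T and innate lymphoid genes were shown together, without B genes, by 43 members, T genes alone by 25, innate lymphoid genes alone by 59 and B genes alone by 16. The other 19 members with B genes comprised 7 that also showed innate lymphoid genes, 6 that also showed T genes and 6 that showed all 3. The 172 members with none of the lists held Dntt in 93.6% and Flt3 in 90.1%. Their mean Il7r count was 2.03 UMIs, against 3.89 in members with B genes, 4.31 with T genes and 3.80 with innate lymphoid genes.

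Genes of other lineages were measured in the same cells. Of 10 stem cell genes, 6 were lower in members than in all other cells in each of the 8 mice and none was higher in each, beside 13.2% lower and 16.5% higher over all genes. Procr, a stem cell surface receptor, was in 8 members. Of 10 granulocyte and monocyte genes, 6 were lower in each mouse. Even so, Mpo, a granule enzyme, gave a UMI in 258 members and in 80.5% of Dntt-positive cells without Il7r. At 2 or more genes per cell, basophil and mast cell genes were in 16 members (4.79%) and in 11.5% of all other cells. By the same measure granulocyte and monocyte genes were in 90.7% of members and dendritic genes in 89.8%. The shares for erythroid and megakaryocyte genes and for stem cell genes were 55.4% and 38.0%. In all other cells these 4 shares were 88.0%, 66.4%, 75.6% and 54.0%. Of 10 dendritic cell genes, 4 were higher in members in each mouse (Cox6a2, Irf8, Runx2 and Bst2) and 1 was lower in each (Ly6c2), beside the same shares over all genes. Against Dntt-positive cells without Il7r, 2 of the 10 were higher in each mouse, where 4.03% of all genes were. The part of dendritic cell RNA in the members was not tested.

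The signalling partners of the receptor were mostly found in other cells too. Of 22 genes on the interleukin-7 pathway list, 10 were higher in members than in all other cells in each of the 8 mice and 1 was lower in each, against 16.5% and 13.2% of all genes, with a median log2 ratio of 0.39. The median over all 8494 genes found in 10% or more of members was 0.09. Bcl2, a survival factor, stood at 282 ± 71.9 CPM in members against 69.2 in other cells (log2 ratio 1.42 to 2.92 in the 8 mice). Il2rg stood at 41.4 ± 7.92 against 16.2. Stat5a was lower in members in each mouse, at 28.3 ± 9.40 against 44.1. Against Dntt-positive cells without Il7r, 3 of the 22 were higher in each mouse, against 4.03% of all genes, and the median ratio was 0.10.

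Whether these cells became rarer with age was asked with the mouse as the replicate. Members were 1.12% and 0.764% of filtered cells in the young male and female, 1.34% and 0.590% in the middle-aged, 0.613% and 0.729% in the old, and 0.539% and 0.289% in the very old mice. The 4 old and very old mice all lay below both young mice, while the middle-aged male was the highest of the 8 and the middle-aged female lay below both young mice. Group means were 0.940% ± 0.249 (SD, n = 2) in young, 0.967% ± 0.532 in middle-aged, 0.671% ± 0.0818 in old and 0.414% ± 0.177 in very old mice.

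Across the 8 mice the share fell with age in weeks by rank (Spearman's rho = -0.76, exact two-sided permutation p = 0.0353), but not after adjustment over the 5 shares tested (Benjamini-Hochberg adjusted p = 0.177). Pearson's r was -0.62 (exact permutation p = 0.0944, adjusted p = 0.462). The old and very old mice were lower than the young by 0.397 percentage points, with an exact permutation p of 0.0667, the smallest that 4 against 2 mice can give. Without the 2 young mice, which are farthest from the median age, rho was -0.68 (exact permutation p = 0.167). Within the 6 mice of series SL19 rho was -0.44 (exact permutation p = 0.411), and series SL20 holds mice of 1 age only. A fall with age was therefore not shown within a library series.

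Cell limits, depth and denominator moved this result. With 3000 or more UMIs and under 5% of UMIs in mt- genes, 152 members remained, 5 and 4 of them in the very old male and female, and rho was -0.57 (exact permutation p = 0.148, adjusted p = 0.246). Thinning cells to 3000 UMIs left out 2098 filtered cells and 7 members with fewer. The rule applied anew to the thinned counts gave 164 cells, of which 140 had met the other limits at full depth. With these cells rho was -0.80 (exact permutation p = 0.0226, adjusted p = 0.113). As a share of the cells that met the other limits, a denominator chosen after the data were seen, rho was -0.85 (exact permutation p = 0.0127, adjusted p = 0.0635) and r was -0.88 (exact permutation p = 0.00337, adjusted p = 0.0169). Per 100 Dntt-positive cells without Il7r, rho was -0.65 (exact permutation p = 0.0885). Those Dntt-positive cells were themselves 6.11% of filtered cells on average in young and 4.96% in old and very old mice.

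**Figure D3:**
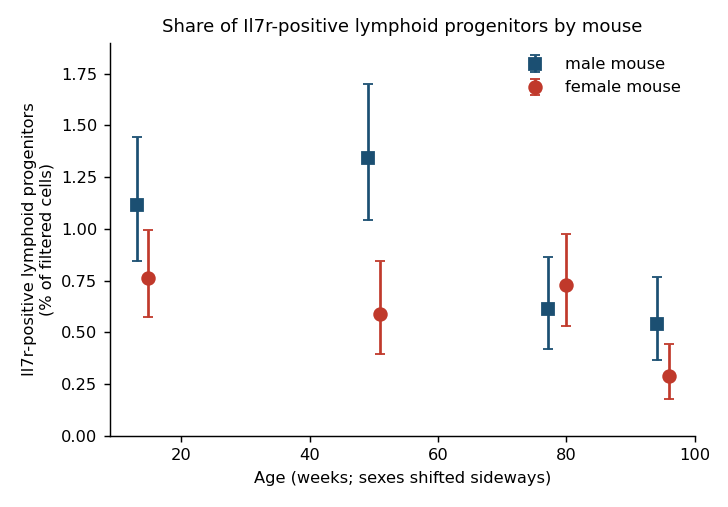
Il7r-positive lymphoid progenitors as a percentage of filtered cells (y axis) against age in weeks (x axis), 1 point per mouse, squares male and circles female, with exact 95% intervals that cover counting error only. The old and very old mice sit between 0.289% and 0.729%, below both young mice, and the middle-aged pair lies at 0.590% and 1.34%.

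The share of members that showed B genes was 19.3% and 14.8% in the young male and female, 4.48% and 0% in the middle-aged, 6.25% and 4.55% in the old, and 30.0% and 0% in the very old mice. The very old male thus held the highest share, with 9 of its 30 members, and the very old female none of 21 (exact 95% upper limit 16.1%). In the middle-aged female the exact 95% upper limit for 0 of 29 was 11.9%. No trend with age passed the test (rho = -0.16, exact permutation p = 0.705, adjusted p = 0.714). The mean was 17.1% in young and 10.2% in old and very old mice. With the stricter limits on UMIs and mt- genes these means were 30.3% and 7.79%, with 5 and 4 members in the very old mice (exact permutation p = 0.0667, the smallest possible). Without the very old male r was -0.81 (exact permutation p = 0.0302, adjusted p = 0.151) and rho was -0.63 (exact permutation p = 0.139, adjusted p = 0.347).

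T genes were shown by 35.1% and 24.1% of members in the young male and female, 16.4% and 13.8% in the middle-aged, 28.1% and 27.3% in the old, and 26.7% and 14.3% in the very old mice. The middle-aged mice lay below both young and both old mice, the very old pair overlapped with the other ages, and the trend did not pass (rho = -0.16, exact permutation p = 0.714, adjusted p = 0.714). With thinned cells it had the opposite sign (rho = 0.74, exact permutation p = 0.0456, adjusted p = 0.114), with a mean of 10.8% in young and 24.8% in old and very old mice. Thinning also changed which cells were members. At full depth the sign turned too with 2 or more Il7r UMIs (rho = 0.24), with 3 or more genes of the list (0.32), without the young male (0.20) and without the very old female (0.05), so no direction is given for the T share.

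Innate lymphoid genes were shown by 40.4% and 29.6% in the young male and female, 31.3% and 20.7% in the middle-aged, 40.6% and 29.5% in the old, and 46.7% and 42.9% in the very old mice (rho = 0.53, exact permutation p = 0.177, adjusted p = 0.441). The very old mice were highest and the other ages overlapped. Within the SL19 mice rho was -0.12 (exact permutation p = 0.811). In thinned cells the mean was 17.3% in young and 30.3% in old and very old mice (rho = 0.68, exact permutation p = 0.0742, adjusted p = 0.124; r = 0.74, exact permutation p = 0.0405, adjusted p = 0.0675). With 3000 or more UMIs and under 5% of UMIs in mt- genes the means were 28.3% and 50.7%, with 5 and 4 members in the very old male and female (rho = 0.67, exact permutation p = 0.0806, adjusted p = 0.201). Dntt was found in 87.3% ± 3.03 (SD, n = 2) of members in young, 83.7% ± 6.19 in middle-aged, 78.4% ± 4.82 in old and 82.9% ± 4.04 in very old mice (rho = -0.35, exact permutation p = 0.390, adjusted p = 0.651). Within-SL19 values for the other shares gave no adjusted p under 0.05. At each of the 4 ages the male had a higher share than the female on all 3 lists, and the tests of shares against age hold no term for sex.

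**Figure D4:**
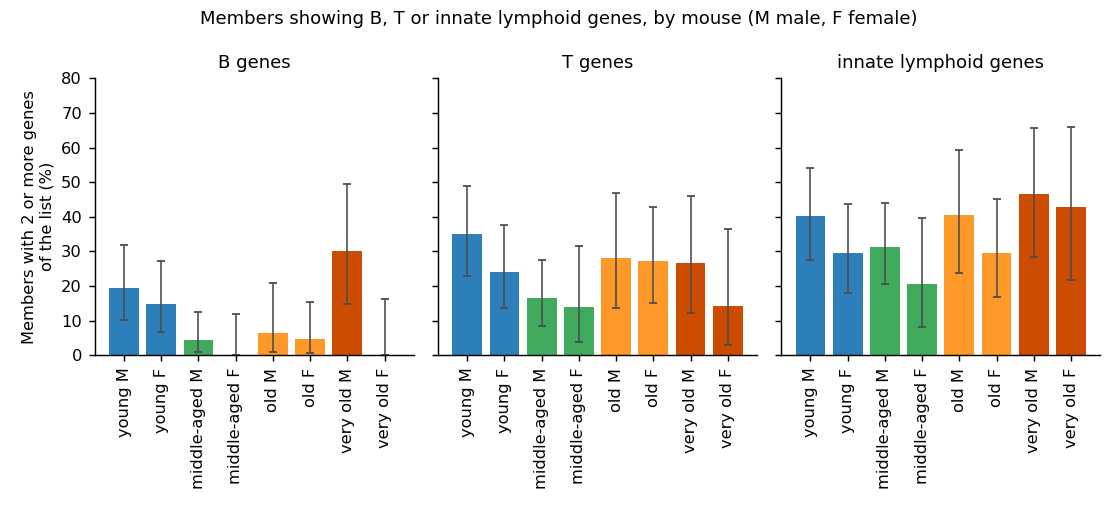
Percentage of members with 2 or more genes of the B, T or innate lymphoid list (y axis) in each of the 8 mice (x axis, M male, F female, coloured by age), with exact 95% intervals that cover counting error only. The B share ran from 0% to 30.0% and both extremes were in the very old mice, with the interval of the very old male above those of both middle-aged mice.

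Changes within the members were tested on UMIs summed over the members of each mouse, which came to 249254 (very old female) to 1135804 (middle-aged male). Where a mouse is left out of an age group below, the lone mouse of that age is assumed to vary like the other groups. Of 6881 genes tested with edgeR, 2 differed between the old and very old mice together and the young mice at an adjusted p under 0.05 (0.0291% of genes tested), and both were higher. None was lower, against 170 genes lower and 240 higher at an unadjusted p under 0.05, and DESeq2 called none. Fold changes are log2. The value after their ± sign is the fold change over the square root of the test's F statistic, an approximate standard error. Levels per mouse are in CPM of the TMM-scaled sum (TMM is edgeR's correction for library composition).

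Id2, which binds and blocks the E proteins that drive B and T programmes, was higher by 1.39 ± 0.23 (adjusted p = 0.0153). Its gene lies on chromosome 12 (GRCm38, 25093799 to 25097140, minus strand). It stood at 44.0 and 102 CPM in the young male and female, 63.6 and 168 in the middle-aged, 189 and 190 in the old, and 150 and 207 in the very old mice. All 4 old and very old mice lay above both young mice, as did 5.46% of the genes tested, while 5.19% lay below. The share of members with an Id2 UMI overlapped more: 15.8% and 24.1% in the young, 20.9% and 27.6% in the middle-aged, 37.5% and 22.7% in the old, and 30.0% and 28.6% in the very old mice.

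Id2 sat mainly in members with other innate lymphoid genes. In the 94 members with 2 or more genes of that list other than Id2, it was found in 48 and stood at 350 CPM before TMM scaling, and in the other 240 members in 33, at 25.7. Members that showed none of the 3 lists are no independent check of Id2, which is itself on the innate lymphoid list, and its change there was -1.13 (adjusted p = 0.996). In members with a Kit UMI it was 0.18 (adjusted p = 0.995). The call was lost without the young male (1.13, adjusted p = 0.429), without the young female (1.73, adjusted p = 0.0629), without the sex term (1.35, adjusted p = 0.620), with DESeq2 (1.44, adjusted p = 0.0696) and in members with 2 or more Il7r UMIs (1.55, adjusted p = 0.312). Between members and Dntt-positive cells without Il7r the change differed by 1.60 ± 0.44, which did not pass (adjusted p = 0.278).

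S100a4, a calcium-binding protein gene named here because it was the other call, was higher by 1.96 ± 0.31 (adjusted p = 0.0104). It stood at 26.0 and 48.0 CPM in the young male and female, 53.9 and 75.8 in the middle-aged, 33.2 and 137 in the old, and 88.1 and 511 in the very old mice. The old male lay below the young female, so the groups overlapped. In the very old female 75 of 116 UMIs came from 1 member. The call was lost without the young female (1.47, adjusted p = 1.0), without the old female (1.72, adjusted p = 0.0865), without the sex term (2.13, adjusted p = 0.620) and with DESeq2 (1.83, adjusted p = 1.0). In members with a Kit UMI the change was -0.17 (adjusted p = 0.997).

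Of the 16 early lymphoid genes tested, none passed the adjusted test in the old and very old mice. At an unadjusted edgeR p under 0.05, 3 were higher and 4 lower, against 240 and 170 of all 6881. The median log2 change of the 16 was -0.14, against -0.01 over all genes. In all 4 mice Lsp1 and Ly6a lay above both young mice, and Notch1 and Flt3 lay below both. Of all 6881 genes tested, 5.46% lay above both and 5.19% below both. Notch1 lay lower in all 4, at 66.1 to 90.2 CPM against 118 and 128 in the young mice (-0.67 ± 0.19, adjusted p = 0.446). Dntt stood at 2125 and 1700 in the young and 1057 to 2332 in the old and very old mice (-0.32 ± 0.10, adjusted p = 0.516). Ly6a, which encodes Sca-1, stood at 21.0 and 20.2 in the young and 36.3 to 106 in the old and very old mice (1.57 ± 0.39, adjusted p = 0.392). No member of this list passed the adjustment over all genes.

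None of the 6 B genes tested passed, with a median of -0.77. At an unadjusted edgeR p under 0.05, 3 of them were lower and 0 higher. Ebf1 stood at 78.0 and 92.3 CPM in the young male and female, 23.9 and 3.99 in the middle-aged, 40.8 and 0 in the old, and 140 and 4.41 in the very old mice (-1.34 ± 0.48, adjusted p = 0.650). The highest level and a level near 0 were thus both in the very old mice. None of the 5 T genes tested passed, with a median of -0.36, and 1 was higher and 1 lower at that unadjusted edgeR p. Of 8 innate lymphoid genes tested, 5 were higher and 0 lower at that unadjusted edgeR p, with a median of 0.67. After adjustment Id2 rose and 7 did not pass. Among those 7, Gata3 changed by 0.72 ± 0.32 (adjusted p = 0.817), Rora by 0.85 ± 0.33 (adjusted p = 0.702) and Il18r1 by 0.62 ± 0.30 (adjusted p = 0.826).

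The interleukin-7 pathway did not pass in any of its 15 tested genes, with a median of 0.12. Crlf2, the receptor chain that pairs with Il7r for the cytokine TSLP, stood at 85.0 and 64.5 CPM in the young and 91.9 to 135 in the old and very old mice (0.55 ± 0.20, adjusted p = 0.662). Bcl2 stood at 237 and 268 in the young and 176 to 396 in the old and very old mice (0.33 ± 0.18, adjusted p = 0.918). Of 22 lymphoid transcription factor genes tested, Id2 rose and 21 did not pass. Ikzf2, which encodes Helios, stood at 45.0 and 45.5 in the young and 70.0 to 135 in the old and very old mice (0.96 ± 0.28, adjusted p = 0.446). Ikzf1 and Tcf3, needed early in lymphoid development, lay below both young mice in all 4, and Gata3, Id2 and Ikzf2 lay above both. Of all genes tested, 5.19% lay below both and 5.46% above both. The median change of the 22 was 0.04. Ikzf1 stood at 189 and 188 in the young and 110 to 166 in the others (-0.35 ± 0.17, adjusted p = 0.826), and Tcf3 at 91.0 and 88.5 against 64.8 to 81.6 (-0.39 ± 0.20, adjusted p = 0.865).

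The single ages were then set against the same 2 young mice, so these comparisons share their controls. In middle-aged mice 9 of the 6881 genes passed (0.131%), 4 higher and 5 lower. The 5 lower genes were all of lymphoid lists: Trbc1 (-1.89 ± 0.30, adjusted p = 0.00434), Trbc2 (-2.46 ± 0.39, adjusted p = 0.00434) and Bcl11b (-5.31 ± 0.90, adjusted p = 0.00677) of the T list, Vpreb1 (-3.23 ± 0.63, adjusted p = 0.0287) of the B list and Ly6d (-2.31 ± 0.40, adjusted p = 0.00761) of the early lymphoid list. Trbc1 stood at 101 and 109 CPM in the young male and female and at 33.6 and 21.9 in the middle-aged. Single members held 42 Trbc1 UMIs in the young male and 30 Trbc2 UMIs in the young female, of 571 and 212 over all mice. The members of those 2 mice summed to 1011260 and 797103 UMIs of all genes. Bcl11b, a factor that commits cells to the T lineage, came from 3 and 2 members in the young and 1 and 0 in the middle-aged mice. Vpreb1 came from 4 members in each young mouse, where a single member held 41 of 77 UMIs in the male and 19 of 40 in the female. Ly6d overlapped between the ages, at 142 and 15.2 CPM in the young and 31.8 and 0 in the middle-aged male and female, and 1 member of the young male held 62 of its 142 UMIs.

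The 4 higher genes in middle-aged mice were Pim1, Ifitm1, Cenpv and Cma1. Pim1, a kinase induced by Stat5, stood at 110 and 138 CPM in the young and 223 and 369 in the middle-aged mice (1.22 ± 0.22, adjusted p = 0.0125). Ifitm1 stood at 70.0 and 83.4 against 219 and 303 (1.74 ± 0.28, adjusted p = 0.00434). A single member of the middle-aged female held 97 of the 695 Ifitm1 UMIs of all members. The members of that mouse summed to 500408 UMIs, so much of its Ifitm1 level came from that 1 member. Cenpv stood at 31.0 and 40.5 against 90.2 and 81.8 (1.28 ± 0.25, adjusted p = 0.0315). Cma1, a mast cell protease gene, had no UMI in the young mice, 167 UMIs in 1 member of the middle-aged male and 4 in 2 members of the middle-aged female (adjusted p = 2.07e-06). Without the young female 3 genes passed, and without the sex term none did. Ifitm1, Cenpv and Cma1 are named because they passed.

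In old mice 3 genes passed (0.0436%), all higher: Id2 (1.42 ± 0.26, adjusted p = 0.0332), Trbc1 (1.40 ± 0.23, adjusted p = 0.0164) and Ccr2 (4.21 ± 0.71, adjusted p = 0.0164). Trbc1 stood at 398 and 182 CPM in the old male and female, the highest of the 8 mice. Ccr2, a chemokine receptor, had 29 UMIs in 2 members of the old male and 23 in 5 of the old female, against 4 and 1 in the young. A single member held 20 of the 29 and another 15 of the 23. Without the old male no gene passed.

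In very old mice 13 genes passed (0.189%), 12 higher and 1 lower. Mpo was the lower gene, at 137 and 145 CPM in the very old against 347 and 308 in the young male and female (-1.21 ± 0.23, adjusted p = 0.0185). Actb rose by 0.81 ± 0.12 (adjusted p = 0.000752), S100a4 by 2.79 ± 0.33 (adjusted p = 5.89e-05) and Id2 by 1.36 ± 0.28 (adjusted p = 0.0396). The noncoding AY036118 rose by 0.94 ± 0.18 (adjusted p = 0.0185), and Tmsb4x, Cd63 and Tubb2a were also called higher. In the very old female 1 member held 384 of its 1305 Actb UMIs. The members with the most Tmsb4x and Tubb2a UMIs were also in that mouse, with 669 of 14085 and 23 of 87 over all mice. For Cd63 the top member was in the very old male, with 35 of 364. DESeq2 called none of the tested genes, with 96 at an unadjusted p under 0.05, while in edgeR 4 passed without the sex term and 82 without the very old male. S100a4 changed by -0.63 in members with a Kit UMI and Id2 by -3.86 in members that showed none of the 3 lists, of which its own list is one. Both very old libraries are of series SL20, which cannot be told apart from the age.

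Several of the other calls came from few cells of 1 mouse. The class II genes H2-Aa, H2-Ab1 and H2-Eb1 were called (H2-Aa 4.40 ± 0.59, adjusted p = 0.000338), and H2-Aa stood at 1070 CPM in the very old female against 72.5 in the very old male. In that female 1 member held 118 of its 243 H2-Aa UMIs. The other 7 genes of the dendritic list, without H2-Aa, H2-Ab1 and Cd74, summed to 529 CPM in that female and to 500.01 to 763 in the other mice. In that female Bst2, Irf8 and Cox6a2 led this sum with 41, 35 and 32 UMIs. These genes were higher in members than in other cells of every mouse, so the sum cannot show what 1 member held. Cma1 and Mcpt8, a basophil protease gene, were called with 134 and 91 UMIs in 3 and 9 members of the very old male and none in the very old female. The other 4 genes of the basophil and mast list, without Cma1, Mcpt8 and Gzmb, summed to 420 CPM in the very old male and to 17.6 to 263 in the other mice. The parts of dendritic and of basophil or mast cell RNA in these results were not tested.

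Leaving out the 23 members with 2 or more basophil and mast genes or 10 or more H2-Aa UMIs, a limit set after the data were seen, gave 1 call for old and very old against young, 14 for middle-aged, 11 for old and 3 for very old mice. None of the earlier calls was among the 1, 7 were among the 14, 3 among the 11 and 2 among the 3. The limit removes UMIs of H2-Aa, Cma1, Mcpt8 and Gzmb by its own construction, so the loss of those calls is in part set by it. Id2 then changed by 1.16 in old and very old mice (adjusted p = 0.0552) and S100a4 by 1.10 (adjusted p = 0.387).

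**Figure D5:**
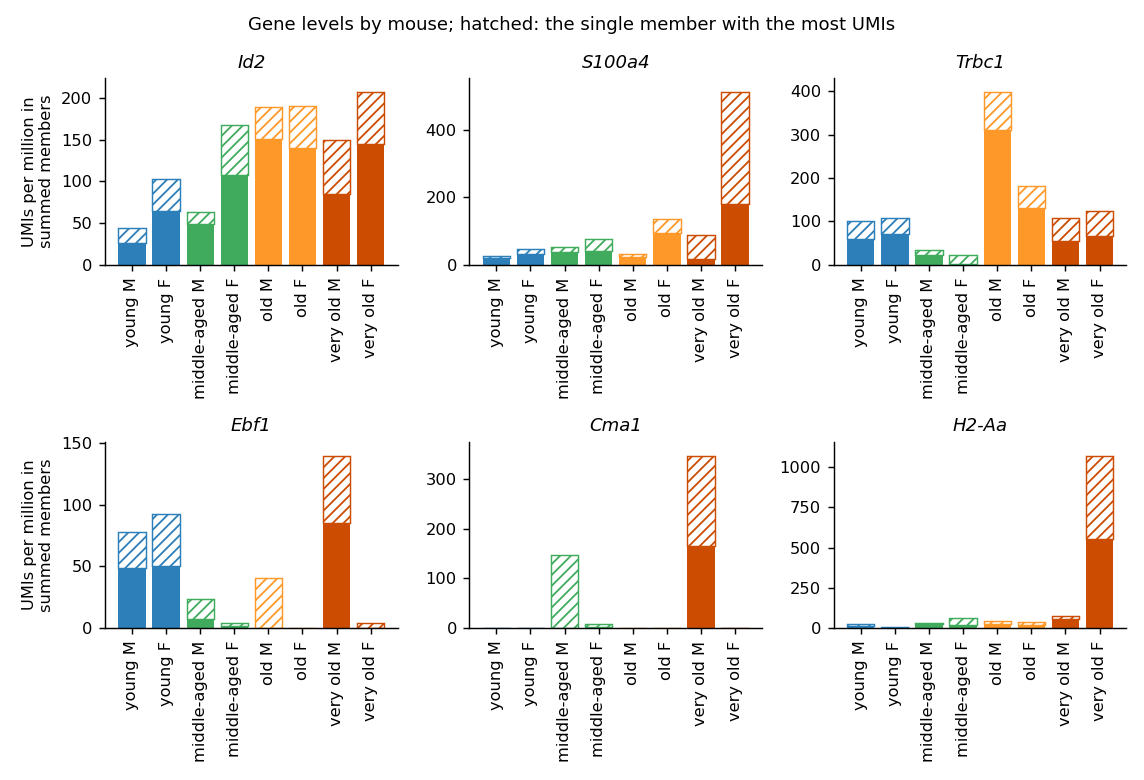
CPM (TMM-scaled, y axis, a scale for each panel, from 0) of 6 genes in the summed members of each mouse (x axis, M male, F female, coloured by age); the hatched part came from the single member with the most UMIs of that gene in that mouse. Id2 lay at 150 to 207 in the old and very old mice and at 44.0 and 102 in the young, while Cma1 and H2-Aa were high in 1 very old mouse each.

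Whether the change in old and very old mice differed from that in Dntt-positive cells without Il7r was tested with the mouse as a block. Of 10756 genes, 4 passed (0.0372%). Fcer1g, a signalling chain of Fc receptors, stood at 125 and 130 CPM, scaled over both sets of cells, in members of the young and 177 to 226 in those of the old and very old mice, and at 115 and 119 against 69.6 to 101 in the Dntt-positive cells (difference 1.02 ± 0.17, adjusted p = 0.000869). Hmgb2, a chromatin protein gene of dividing cells, had a difference of -0.40 ± 0.08 (adjusted p = 0.0325). Mcpt8 had a difference of 4.19 ± 0.82 (adjusted p = 0.0205). Gzmb passed with no UMI in members of the young mice and 27, 0, 47 and 0 UMIs in those of the old male, old female, very old male and very old female (adjusted p = 1.01e-07).

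These 4 results depended on single mice to different degrees. Mcpt8 had the opposite sign without the very old male (-1.20, adjusted p = 0.983) and was lost without the old male (3.83, adjusted p = 0.0847). Gzmb was lost without the young male (adjusted p = 0.867), the old male or the very old male (adjusted p = 1.0 for both). Hmgb2 was lost without the young male (-0.34, adjusted p = 0.600) or the old female (-0.35, adjusted p = 0.0881). Fcer1g was called whichever mouse was left out, and was lost without the mouse block (1.03, adjusted p = 0.898), in members with 2 or more Il7r UMIs (0.64, adjusted p = 0.483), in members that showed none of the 3 lists (0.48, adjusted p = 0.987) and without the 23 members named above (0.56, adjusted p = 0.444).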

How the data were processed

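Data were deposited UMI counts per gene and cell barcode for 8 mice, which the authors made with Cell Ranger against the mm10 build (GRCm38); the file headers give version 6.0.0. Labels and methods name different library chemistries, so the chemistry is not stated here. Counts were used as deposited, with no ambient RNA removal. The cell limits are those in the opening. Members and gene lists were chosen with earlier results of these data known, and the lists hold 6 to 27 genes. Genes could be named if they belonged to the lymphoid, interleukin-7 or transcription factor lists, were called in old and very old mice with all 4 beyond both young mice, were called in the difference from Dntt-positive cells, or were among the 15 with the highest ratio; other named genes were chosen after their values were seen.

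Shares were computed per mouse and tested by exact permutation in Python 3.11.15 (scipy 1.17.1). Intervals are exact Clopper-Pearson. Summed counts were tested in R 4.3.3 with edgeR 4.0.16 (TMM, filterByExpr, quasi-likelihood, age group and sex, 3 residual degrees of freedom), the 5 genes of the rule excluded, called at Benjamini-Hochberg adjusted p under 0.05. DESeq2 1.42.0 was an alternative, and Scrublet ran in scanpy 1.11.5. On simulated counts, of 100 genes changed by 2 on the log2 scale, 98 were recovered for old and very old against young, 95 for middle-aged, 89 for old and 84 for very old (6882 genes, 10 to 14 false calls), and 77 for the difference from Dntt-positive cells (10757 genes, 11 false calls). The simulated counts were drawn independently at the fitted spread. They did not copy genes whose UMIs sat mostly in 1 member, so the recoveries do not extend to such genes. Coordinates are from GENCODE vM21. Each mouse is 1 animal, so p-values rest on 2 mice per age. Replicates carry no shared numbers in the labels.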

Additional observations from a re-analysis of the deposited data

Results flagged for a closer look

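Among the 4 old and very old mice, a single mouse stood apart from the other 3 in 8 of 27 values by Dixon's gap test, which by chance flags about 1 in 20 independent groups. The genes were called or named beforehand for their differences in these mice and some move together, so that rate is no yardstick for the 8. The very old female had the lowest share of members with T genes (14.3%) and the highest H2-Aa (1070 CPM), H2-Ab1 (1031), H2-Eb1 (846) and Tubb2a (115). The very old male had the highest Cma1 (347), Ly6d (324) and Mcpt8 (236).

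The change between young and old or very old mice differed between members and Dntt-positive cells without Il7r for Gzmb (edgeR adjusted p = 1.01e-07), Fcer1g (adjusted p = 0.000869), Mcpt8 (adjusted p = 0.0205) and Hmgb2 (adjusted p = 0.0325).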

How the results depend on the processing

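The labels give the mice no replicate numbers to pair. Sex was a term of the age fits, and the mouse was the block in the difference from Dntt-positive cells. The correlation of a share with age had the opposite sign in several settings. With both young mice left out, it was 0.328 for B genes. For T genes it was 0.206 there, 0.238 with 2 or more Il7r UMIs, 0.740 in thinned cells and 0.315 with 3 or more genes. For innate lymphoid genes it was -0.118 within SL19 and -0.182 with 1 or more genes. For Dntt it was 0.0883 without the young mice and 0.0485 in members with a Kit UMI. Leaving out each mouse gave -0.837 to -0.655 for the member share, -0.633 to 0.0727 for B, -0.346 to 0.200 for T, 0.309 to 0.753 for innate lymphoid genes and -0.582 to -0.0727 for Dntt.

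Counts of called genes moved as follows. DESeq2 gave 0 for old and very old together, 1 for middle-aged, 0 for old, 0 for very old and 1 for the difference from Dntt-positive cells. No filter on low counts gave 42, 42, 41, 80 and 38. With no sex term the 4 age counts were 0, 0, 0 and 4, and with no mouse block the difference gave 0. With 2 or more Il7r UMIs they were 1 for old and very old together, 3 for middle-aged, 8 for very old and 20 for the difference. In members with a Kit UMI they were 1 for old and very old together, 5 for old, 6 for very old and 16 for the difference. In members showing none of the lists they were 2 for old and very old together, 1 for middle-aged, 0 for old, 1 for very old and 5 for the difference, with 0 of the main calls among them. The 5 calls for old in members with a Kit UMI held 0 of the main 3. Without the 23 members with basophil or class II genes, an alternative chosen after seeing the data, they were 1, 14, 11, 3 and 8. Leaving out each mouse gave 0 to 58, 3 to 29, 0 to 30, 10 to 82 and 4 to 81. None of the 31 called gene values stayed called in every setting.

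Named genes with the opposite sign were S100a4 in members with a Kit UMI (-0.17 for old and very old together, -0.63 for very old), Id2 in members showing none of the lists, which removes Id2-carrying cells by construction (-1.13 for old and very old together, -3.86 for very old) and with a Kit UMI (-0.78 for old), Mcpt8 without the very old male (-4.46 for very old, up to 6.86 with each other mouse left out; -1.20 for the difference, up to 4.70), and Cd63 in very old mice (-3.46 in members showing none of the lists, -2.89 without the 23 members). The cause was not tested.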
